A study of Mus musculus with 12 samples.

Results

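A set of 10 genes for costimulatory receptors and early activation markers was followed in CD4+ T cells that had been stimulated in culture: Cd28, Icos, Tnfrsf4, Tnfrsf18, Tnfrsf9, Cd27, Tnfrsf1b, Slamf1, Cd226 and Cd69. The rule lists them by gene symbol and uses no measured value, although the set was proposed with earlier results of these data known. They make up 10 of the 39017 genes of the count table. All 10 were found and all 10 passed the filter on low counts. The cells came from SJL mice of a core genotypes model that lets sex chromosomes and gonad type vary separately. Its Y chromosome, written Y-, is without Sry, the gene that starts testis formation, and a transgene on an autosome gives Sry back to part of the animals. The groups were XXSry (XX with the transgene, labelled male), XY-Sry (XY- with the transgene, labelled male), XX (labelled female) and XY- (labelled female), with 3 libraries each and 12 in all. Every animal had been gonadectomized at 4 to 6 weeks of age, so no group kept its gonads. Axillary, brachial and inguinal lymph nodes were taken at 8 to 12 weeks, CD4+ T cells were isolated with a magnetic kit, and all cells received beads coated with anti-CD3 and anti-CD28 for 36 hours. No unstimulated cells were analysed here, so the values describe stimulated cells and not induction. Presence of the transgene and the earlier gonad type go together in this model and cannot be told apart. Nothing in the labels ties a library to an animal of its own. The p-values therefore reflect only how much the libraries varied, and part of that may be technical.

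T cells need a further signal beside the antigen receptor to divide, survive and make cytokines, and costimulatory receptors deliver it. CD28 and ICOS are immunoglobulin-family receptors that recruit phosphoinositide 3-kinase. Receptors of the TNF receptor superfamily (OX40 from Tnfrsf4, GITR from Tnfrsf18, 4-1BB from Tnfrsf9, CD27, and TNFR2 from Tnfrsf1b) recruit TRAF adaptors and activate NF-kB, mostly after the first activation. SLAMF1 binds itself on neighbouring cells and signals through the adaptor SAP, CD226 binds the poliovirus receptor PVR and nectin-2, and CD69 is an early surface marker that holds activated cells in the lymph node by taking down the receptor S1PR1.

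In mouse build mm10 the genes were placed as follows. Cd28 (chr1:60716800-60773359, plus strand) and Icos (chr1:60977927-61000320, plus) are 204.6 kb apart with the inhibitory receptor gene Ctla4 between them. Tnfrsf4 (chr4:156013843-156016612, plus) and Tnfrsf18 (chr4:156026164-156028895, plus) are neighbours 9551 bases apart with 0 protein-coding genes between them. Tnfrsf9 (chr4:150914562-150946102, plus) and Tnfrsf1b (chr4:145213463-145246870, minus) share their chromosome. Slamf1 lies at chr1:171767127-171801184 (plus), Cd27 at chr6:125232622-125237010 (minus) and Cd69 at chr6:129267325-129275436 (minus). All 10 are annotated as protein coding. Exons of Tnfrsf18 share 414 bases with the antisense gene Gm16008. Reads of that pair cannot be told apart here, because no source used here states whether counting was stranded. An exon of Cd27 contains 129 bases annotated as Mir8113.

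Tnfrsf1b and Slamf1 differed between groups by the test used here, and their promoters are shown for that reason. The sequences are RefSeq promoters of the mouse reference assembly GRCm38.p6, not of the SJL strain, and run 5′ to 3′ from 250 bases before to 50 bases after the annotated start. Capitals mark matches on either strand to AACAAT, the core bound by SRY and SOX proteins, or to GGGNNNNNCC. The latter is a loose form of the NF-kB core that leaves its middle bases free, so other sequences match it too. Overlapping matches form 1 capital stretch.
Tnfrsf1b promoter, chr4:145246821-145247120, minus strand: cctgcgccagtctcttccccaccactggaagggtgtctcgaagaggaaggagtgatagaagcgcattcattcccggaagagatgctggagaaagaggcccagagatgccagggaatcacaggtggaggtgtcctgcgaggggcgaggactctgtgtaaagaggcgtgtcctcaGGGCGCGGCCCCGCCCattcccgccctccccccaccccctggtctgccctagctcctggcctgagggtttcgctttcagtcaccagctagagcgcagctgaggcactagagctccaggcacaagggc
Slamf1 promoter, chr1:171766882-171767181, plus strand: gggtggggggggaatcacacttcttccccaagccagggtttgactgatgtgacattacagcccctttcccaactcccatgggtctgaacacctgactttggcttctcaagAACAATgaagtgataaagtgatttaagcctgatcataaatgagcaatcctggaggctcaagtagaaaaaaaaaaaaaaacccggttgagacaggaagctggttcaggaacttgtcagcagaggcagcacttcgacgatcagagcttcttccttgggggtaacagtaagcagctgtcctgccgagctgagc
The Slamf1 window held AACAAT once, at position -140 from the start, and the Tnfrsf1b window held 3 overlapping GGGNNNNNCC matches at positions -77, -76 and -71. Of 32851 promoters of the same length, 10.7% held AACAAT and 50.8% held GGGNNNNNCC. RefSeq entries were found for 6 of the 10 genes. Among those 6, AACAAT was found only for Slamf1, GGGNNNNNCC for 3 (Tnfrsf1b, Tnfrsf9 and Cd27), the AP-1 core TGANTCA (in 7.81% of promoters) for Tnfrsf9, and the NFAT core TGGAAA (in 21.4%) for Tnfrsf9 and Tnfrsf4. A match describes these letters and is no evidence that a protein binds there.

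Total counts per library ran from 11664186 to 16710188. Mitochondrial genes took 5.01% of counts in XX replicate 3, compared with 2.27% to 2.87% for the remaining 11 libraries. As a check of the labels, Sry averaged 113 ± 17.6 CPM (counts scaled to library size) in XXSry libraries and 100.5 ± 13.9 CPM in XY-Sry (SD, n = 3 each), against 0 reads in all XX libraries together and 1 read in all XY- libraries. Xist, the RNA of the inactive X chromosome, averaged 2880 CPM in XXSry cells, 3.14 CPM in XY-Sry, 3353 CPM in XX and 3.86 CPM in XY-. Summed markers of CD4+ T cells lay between 2579 and 2882 CPM in every library and markers of myeloid cells between 16.1 and 21.6 CPM, with Itgax listed at 0 throughout.

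All 10 genes were expressed in every library. Between genes, levels were compared as CPM per kilobase of merged exon. Merged exons pool all annotated transcripts of a gene, so this length can exceed that of the RNA present, and the order depends on it. Before scaling, Cd69 (89.6 CPM, 6.51 kb of merged exon) lay close to Cd27 (94.4 CPM, 2.33 kb). Cd28 (581.4 CPM) lay above Tnfrsf18 (314.7 CPM). By the mean over 12 libraries, Tnfrsf18 (206.5) and Tnfrsf4 (199) were highest, followed by Icos (129), Cd28 (94.97), Tnfrsf9 (41.4), Cd27 (40.5), Tnfrsf1b (31.7), Cd69 (13.8), Slamf1 (11.4) and Cd226 (8.33). The top pair stood at percentiles 99.1 and 99 of the 14354 tested genes with a known length, and Cd226 at percentile 54.3. Neighbours in this order whose library ranges overlapped were Tnfrsf18 with Tnfrsf4 (195.6 to 219.8 and 173 to 223.5), Tnfrsf9 with Cd27 (37.9 to 46.2 and 33.9 to 55.8), Cd27 with Tnfrsf1b (27.1 to 35.9), and Cd69 with Slamf1 (9.68 to 17.8 and 9.97 to 13.4). Cd226 (6.40 to 9.95) ended just below the lowest Slamf1 library and overlapped Cd69. Icos (110.1 to 147.3) and Cd28 (85.9 to 104.5) overlapped neither each other nor their other neighbours. The spread over libraries also differed between genes. The highest library was 1.12 times the lowest for Tnfrsf18, 1.22 times for Cd28 and Tnfrsf9, 1.64 times for Cd27 and 1.84 times for Cd69.

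**Figure D1:**
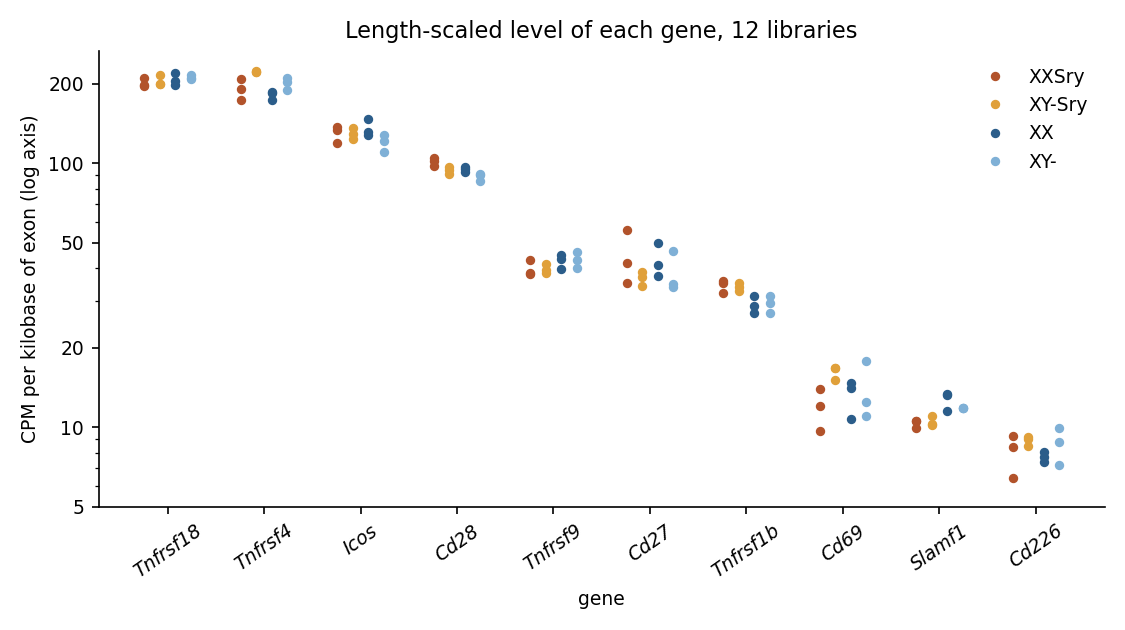
CPM per kilobase of exon (log axis) for each of the 10 genes, ordered by mean, with 1 point per library coloured by group. Tnfrsf18 and Tnfrsf4 lie near 200 in all groups, and Cd226 lies lowest at 6.40 to 9.95.

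With edgeR, the mean Sry comparison was the only one in which any of the 10 genes passed, and 8 did not pass there. With both sex chromosome types averaged, Tnfrsf1b, a receptor for TNF and lymphotoxin alpha on T cells, was higher with Sry, and Slamf1 was lower. These were 2 of the 10 genes (1 higher, 1 lower), at an adjusted p under 0.05 over all 14585 tested genes (edgeR's quasi-likelihood test, Benjamini-Hochberg adjustment). Over all tested genes, 5.44% were called in this comparison, 2.13% as higher and 3.31% as lower. The median log2 fold change was 0.03 over the 10 genes and -0.001 over all tested genes, and 6 of the 10 values were positive and 4 negative. In the separate pairs, XXSry against XX and XY-Sry against XY-, 0 of the 10 genes passed with edgeR, where 0.453% and 0.679% of all tested genes did. At an unadjusted p under 0.05 these pairs counted 2 and 3 of the 10, against 14% and 12.7% of all genes, and DESeq2 called 1 and 0, against 1.78% of all genes in each pair. In this bulk RNA, a difference in a gene's RNA per cell and a difference in the share of cells that express it cannot be told apart.

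Slamf1 had 64.8, 65.1 and 61.4 CPM in XXSry cells and 62.7, 68.0 and 63.4 CPM in XY-Sry, against 82.4, 71.0 and 81.3 CPM in XX and 73.1, 72.9 and 73.1 CPM in XY-. All 6 libraries with Sry lay below all 6 without it. The log2 fold change was -0.235 (SE 0.045, 0.850-fold, edgeR adjusted p = 0.00841). Of all tested genes, 1.64% lay below without overlap in this way. Within each sex chromosome type the groups also did not overlap, as was so in this direction for 7.99% of tested genes in XXSry against XX and for 11.6% in XY-Sry against XY-. There Slamf1 had a log2 fold change of -0.295 (SE 0.064, edgeR adjusted p = 0.0594) in XXSry against XX and of -0.175 (SE 0.064, edgeR adjusted p = 0.256) in XY-Sry against XY-. Neither of these passed the test with edgeR, while DESeq2 called the first (DESeq2 adjusted p = 0.0107), as did edgeR without XX replicate 2 (adjusted p = 0.0179). The mean difference stayed past the threshold when each of the 12 libraries was left out in turn, with edgeR adjusted p-values from 0.00255 to 0.0313.

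Tnfrsf1b had 137.1, 134.1 and 123.3 CPM in XXSry cells and 134.2, 129.6 and 125.6 CPM in XY-Sry, against 120.2, 103.6 and 110.1 CPM in XX and 113.3, 103.3 and 119.5 CPM in XY-. Again no library with Sry overlapped one without it, here with the Sry libraries above, as was so for 1.19% of tested genes. The log2 fold change was 0.23 (SE 0.049, 1.17-fold, edgeR adjusted p = 0.0154). By type, it was 0.24 (SE 0.069, edgeR adjusted p = 0.139) in XXSry against XX and 0.21 (SE 0.069, edgeR adjusted p = 0.191) in XY-Sry against XY-, and neither passed alone. The call was kept in 10 of 12 fits that left out 1 library and was lost without XXSry replicate 2 (edgeR adjusted p = 0.0522) and without XY-Sry replicate 1 (edgeR adjusted p = 0.0538).

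**Figure D2:**
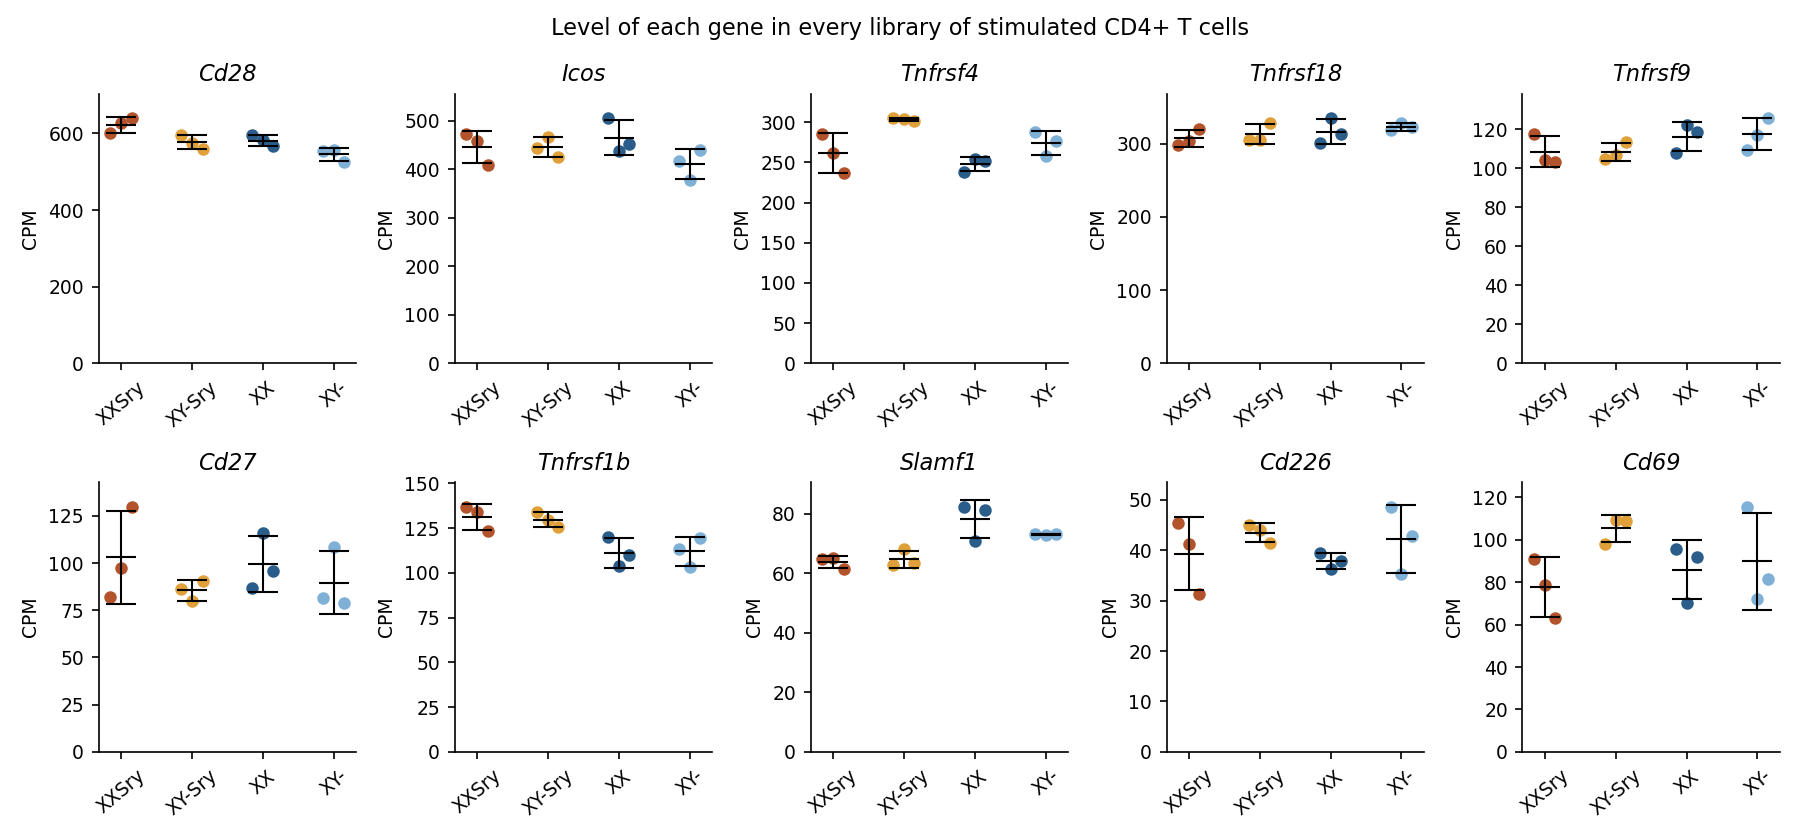
CPM of each gene in every library (points), with the mean and SD of the 3 libraries of each group (bars); the y axes start at 0. Tnfrsf1b is above in the 6 libraries with Sry and Slamf1 below, while Cd27, Cd69 and Cd226 spread widely within groups.

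The other 8 genes did not pass in the Sry comparison. For the CD28 family, Cd28 had 600.1, 627.2 and 640.0 CPM in XXSry cells, 595.3, 575.6 and 559.3 CPM in XY-Sry, 594.8, 581.9 and 565.8 CPM in XX and 554.4, 556.2 and 526.1 CPM in XY-. Each group with Sry lay just above its partner without Sry, by a log2 fold change of 0.09 (SE 0.035, edgeR adjusted p = 0.156) on average, although XY-Sry and XX overlapped. The share of all tested genes above without overlap was 8.08% in XXSry against XX and 11.1% in XY-Sry against XY-. Its antibody was part of the stimulus in every group. Icos had 471.4, 458.0 and 408.0 CPM in XXSry cells, 443.7, 465.8 and 424.6 CPM in XY-Sry, 505.2, 437.4 and 451.0 CPM in XX and 416.6, 377.7 and 439.1 CPM in XY-. Its ranges overlapped in all 4 pairwise comparisons, and the mean Sry difference was 0.03 on the log2 scale (95% interval -0.09 to 0.14).

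Among the TNF receptors, Tnfrsf4 (OX40, a survival receptor of activated T cells) had 285.6, 261.9 and 236.1 CPM in XXSry cells and 305.0, 304.0 and 301.5 CPM in XY-Sry, against 237.3, 253.7 and 251.8 CPM in XX and 287.2, 258.2 and 276.7 CPM in XY-. XY-Sry lay above XY- without overlap, as was so for 11.1% of tested genes, while XXSry overlapped XX. The mean log2 fold change of Tnfrsf4 with Sry was 0.11 (SE 0.046, edgeR adjusted p = 0.18). XXSry replicate 3, the lowest library, decided this call, since without it the log2 fold change was 0.15 (SE 0.042, edgeR adjusted p = 0.0429).

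Tnfrsf18 (GITR, carried by regulatory and activated T cells) had 298.2, 302.9 and 320.5 CPM in XXSry cells and 305.2, 304.4 and 328.3 CPM in XY-Sry, against 301.1, 334.9 and 312.6 CPM in XX and 318.1, 328.2 and 322.1 CPM in XY-. Its range over the 12 libraries was the narrowest of the 10 genes, all pairs of groups compared overlapped, and the 95% interval of its Sry difference ran from -0.13 to 0.04 on the log2 scale. Its antisense neighbour Gm16008 had between 39.3 and 49.6 CPM in the 12 libraries.

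Tnfrsf9 (4-1BB, which is induced by activation) had 117.5, 104.3 and 103.3 CPM in XXSry cells and 104.5, 106.9 and 113.5 CPM in XY-Sry, against 107.9, 122.2 and 118.3 CPM in XX and 109.4, 117.1 and 125.7 CPM in XY-. The groups overlapped, and the mean log2 fold change with Sry was -0.11 (SE 0.050, edgeR adjusted p = 0.229).

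Cd27, a receptor already present on resting T cells, had 81.8, 97.3 and 129.9 CPM in XXSry cells and 86.0, 79.9 and 90.6 CPM in XY-Sry, against 86.8, 115.9 and 95.7 CPM in XX and 81.3, 108.6 and 79.0 CPM in XY-. Libraries of 1 group differed as much as groups did, and the 95% interval of the Sry difference, -0.24 to 0.22 on the log2 scale, is wide.

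Cd226 (chr18:89176967-89272229, plus strand), an adhesion and costimulatory receptor, had 45.5, 41.3 and 31.3 CPM in XXSry cells and 45.0, 44.0 and 41.5 CPM in XY-Sry, against 39.4, 36.2 and 37.8 CPM in XX and 48.7, 35.3 and 42.8 CPM in XY-. Groups overlapped in all 4 pairwise comparisons, and the mean Sry difference was 0.05 on the log2 scale (95% interval -0.14 to 0.23). It was also the most thinly sampled of the genes, with 425 to 752 reads per library.

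Cd69 had 91.1, 78.6 and 63.0 CPM in XXSry cells and 98.1, 109.1 and 108.9 CPM in XY-Sry, against 95.7, 70.1 and 92.0 CPM in XX and 115.6, 72.1 and 81.5 CPM in XY-. Its mean Sry difference was 0.04 on the log2 scale (95% interval -0.20 to 0.28). The values within XX type and within XY- type pointed opposite ways, at -0.15 (SE 0.16, edgeR adjusted p = 0.731) in XXSry against XX and 0.23 (SE 0.16, edgeR adjusted p = 0.593) in XY-Sry against XY-. Their difference did not pass (interaction -0.38 on the log2 scale, SE 0.23, edgeR adjusted p = 1).

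**Figure D3:**
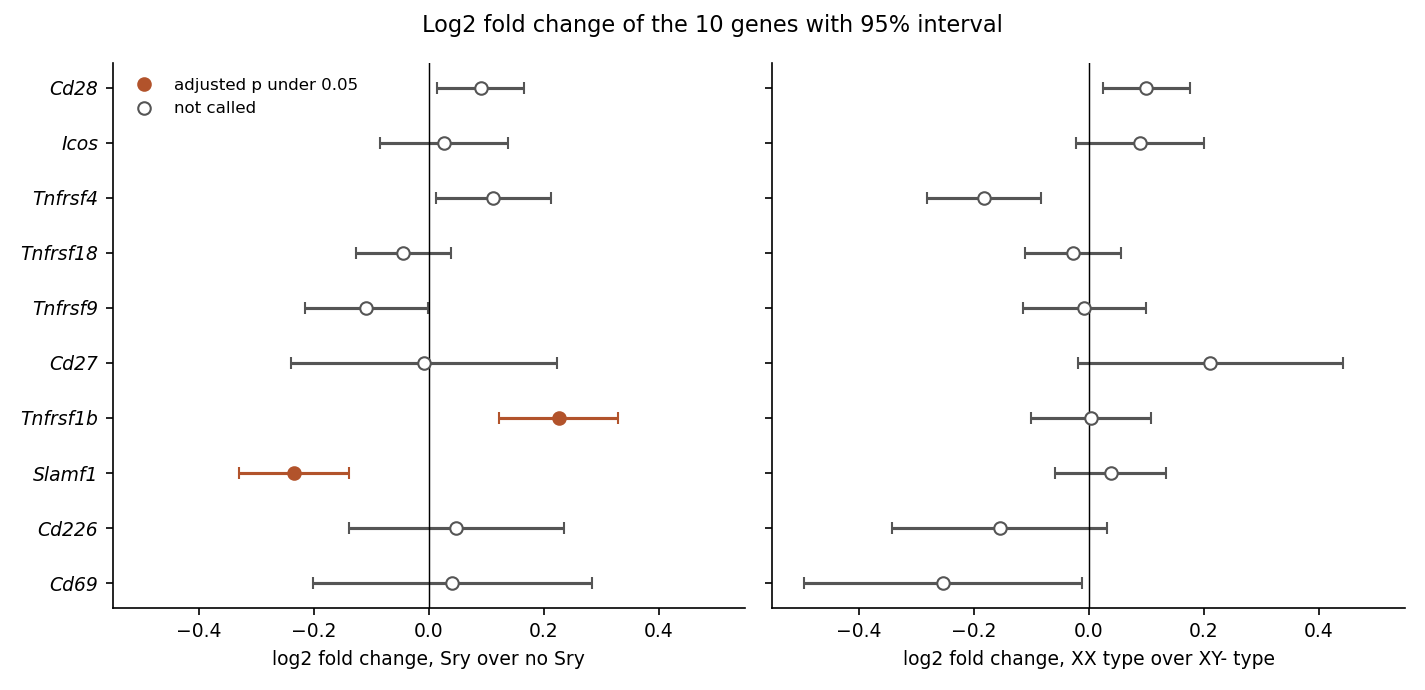
Log2 fold change of each gene with its 95% interval, on the left for Sry over no Sry and on the right for XX type over XY- type, each averaged over the other factor. In the left panel only Tnfrsf1b (0.23) and Slamf1 (-0.235) are filled as past an adjusted p of 0.05; in the right panel none is.

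Sex chromosome type was compared with Sry held constant. None of the 10 genes passed in XX against XY-, in XXSry against XY-Sry or in their mean (edgeR), where 0.103%, 0.103% and 0.137% of all tested genes were called. At an unadjusted p under 0.05 the members counted 2, 3 and 3, against 6.37%, 10.4% and 14.2% of all genes, and DESeq2 called 0, 0 and 1, against 0.123%, 0.171% and 0.576%. The gene called by DESeq2 was Tnfrsf4, which was lower with XX type in both pairs without overlap of the libraries (values above). Its mean log2 fold change was -0.18 (SE 0.046, 0.882-fold), with an edgeR adjusted p of 0.187 and a DESeq2 adjusted p of 0.0455, and its edgeR adjusted p ranged from 0.0644 to 0.454 when 1 library was left out. The difference was -0.22 (SE 0.066) in XXSry against XY-Sry and -0.15 (SE 0.066) in XX against XY-.

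Cd28 was higher with XX type in both pairs without overlap, and its mean log2 fold change of 0.10 (SE 0.035) did not pass (edgeR adjusted p = 0.268). All 4 pairwise comparisons of Cd28 were free of overlap, XXSry being highest and XY- lowest, while the differences of the group means were small, between 1.06-fold and 1.08-fold. How many of all tested genes were free of overlap in both pairs or in all 4 comparisons was not counted. Cd69 was lower in XXSry than in XY-Sry without overlap, at -0.44 (SE 0.16, edgeR adjusted p = 0.452), whereas XX and XY- overlapped. Non-overlap is common between groups of 3: in XXSry against XY-Sry, 10.3% of tested genes lay above and 9.88% below without overlap, and in XX against XY- these shares were 4.67% and 5.07%.

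For Slamf1 and Tnfrsf1b, the sex chromosome difference was close to 0 on the log2 scale, with 95% intervals of -0.06 to 0.14 and -0.10 to 0.11. The interval of the mean difference ran from -0.02 to 0.20 for Icos and from -0.02 to 0.44 for Cd27. It ran from -0.11 to 0.10 for Tnfrsf9, -0.11 to 0.06 for Tnfrsf18 and -0.34 to 0.03 for Cd226. All of these intervals included 0. Those of Cd69 (-0.496 to -0.012), Tnfrsf4 (-0.281 to -0.083) and Cd28 (0.025 to 0.176) did not. The mean difference of Cd69, -0.254 (SE 0.114), was the largest in size of the 10 genes and did not pass (edgeR adjusted p = 0.341). No gene of the set, and 0 of all 14585 tested genes, passed for the interaction of Sry with sex chromosome type with edgeR or with DESeq2. At an unadjusted p under 0.05 the interaction counted 0 of the 10 and 385 (2.64%) of all genes.

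Libraries of 1 group were not equally alike. XXSry replicate 3 was highest of all 12 libraries for Cd28 and Cd27 and lowest for Tnfrsf4, Tnfrsf9, Cd69, Slamf1 and Cd226. Without it and XX replicate 3 together, 3 of the 10 genes passed in the Sry comparison in place of 2, Tnfrsf4 being added (edgeR adjusted p = 0.0326), and 1356 of all genes in place of 793 (1354 of the 14585 tested before, or 9.28%). Across the 12 libraries, Cd27 ran against Cd226 (Pearson r = -0.912, permutation p = 7e-05, adjusted over 45 pairs p = 0.0031; Spearman rho = -0.846, adjusted permutation p = 0.037). Without the 2 libraries farthest from the median of Cd27, r was -0.821, and for deviations from the group means it was -0.900. Tnfrsf4 and Cd226 rose and fell together across libraries (r = 0.781, adjusted permutation p = 0.028; rho = 0.804, adjusted permutation p = 0.037; r = 0.759 without the 2 farthest libraries). Icos ran against Tnfrsf18 (r = -0.738, adjusted permutation p = 0.042; rho = -0.818, adjusted permutation p = 0.037; r = -0.703 without the 2 farthest). Cd69 ran against Cd27 (r = -0.816, adjusted permutation p = 0.02) and with Cd226 (r = 0.812, adjusted permutation p = 0.02), but by rank neither passed (rho = -0.706 and 0.748, adjusted permutation p = 0.11 and 0.08). For deviations from the group means, r was 0.852 for Tnfrsf4 with Cd226 and -0.811 for Icos with Tnfrsf18. For Cd69 it was -0.806 with Cd27 and 0.834 with Cd226, and without the 2 farthest libraries -0.601 and 0.637. The permutations shuffled all 12 libraries regardless of group, so their p-values do not separate variation within groups from differences between groups. All of these points share a library's depth and cell mix, and the part of either was not tested.

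**Figure D4:**
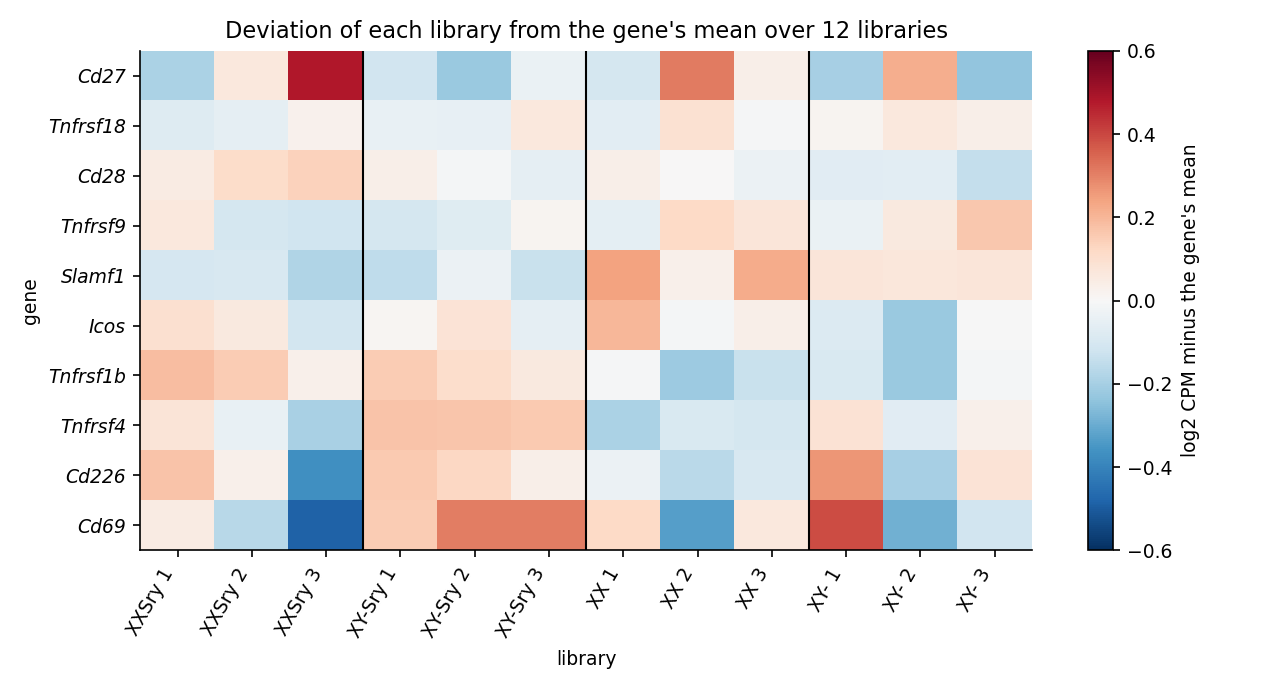
Difference of each library's log2 CPM from the gene's mean over 12 libraries (colour scale), with genes as rows, libraries as columns and black lines between groups. XXSry replicate 3 is the reddest column for Cd27 and among the bluest for Cd226 and Cd69.

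As a description, the genes whose levels followed each member most closely over the 12 libraries were named from 9899 genes. Their r values were picked as the highest of that search and were not tested. They are no evidence that the genes are regulated together. The highest Pearson r was found with Nfatc3 for Cd28 (0.96), Smad3 for Cd27 (0.979), Elp5 for Tnfrsf4 (0.967), Sh3glb2 for Tnfrsf9 (0.888), Zgpat for Tnfrsf18 (0.907), Hipk3 for Tnfrsf1b (0.97), Zfp944 for Slamf1 (0.949), Timm10 for Cd69 (0.972), Iws1 for Icos (0.878), and Noc4l and Cd200 for Cd226 (0.963 each).

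Genes around the receptors were then described in 9 lists of ligands, adaptors and related receptors, of which 106 of 112 genes were tested. In the Sry comparison 18 of them passed (17% against 5.44% of all tested genes), 11 higher and 7 lower. The lists were chosen with earlier results of these data known, so these shares cannot test whether genes around the receptors differed more often. The 18 include Pdk1, a gene of energy metabolism and not of CD28 signalling. In the mean sex chromosome comparison 0 passed with edgeR, 30 of the 106 had an unadjusted p under 0.05 (14.2% of all genes) and DESeq2 called 2 (0.576% of all genes). Without XX replicate 3 and XXSry replicate 3, the Sry comparison gave 28, with 9.28% of all genes called.

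Of the TRAF and TNF receptor adaptors, which act downstream of Tnfrsf1b and its relatives, 3 of 12 tested were higher with Sry and 0 lower (median log2 fold change of the list 0.12, all genes -0.001). Birc3, a ubiquitin ligase bound to TRAF proteins, averaged 83.4 ± 5.5 CPM in XXSry cells and 89.3 ± 2.91 CPM in XY-Sry, against 74.1 ± 2.58 CPM in XX and 76.0 ± 2.82 CPM in XY- (SD, n = 3 each), a log2 fold change of 0.20 (SE 0.043, edgeR adjusted p = 0.0135). Traf1, an adaptor that is itself induced by NF-kB, was higher by 0.23 (SE 0.058, edgeR adjusted p = 0.0316). Tnfaip3, which encodes the NF-kB inhibitor A20, was higher by 0.24 (SE 0.063, edgeR adjusted p = 0.0416). Of the 9 tested ligands none passed with edgeR, 2 had an unadjusted p under 0.05 (21% of all genes) and DESeq2 called 1 (6.67% of all genes). Tnfsf4, the ligand of OX40, averaged 13.6 ± 1.82 CPM in XXSry cells and 16.6 ± 1.98 CPM in XY-Sry, against 8.98 ± 1.42 CPM in XX and 12.2 ± 4.44 CPM in XY- (edgeR adjusted p = 0.0571). Lta, which encodes the TNFR2 ligand lymphotoxin alpha, had a log2 fold change of -0.26 (SE 0.086, edgeR adjusted p = 0.0924). Among 15 other tested TNF receptors none passed with edgeR or DESeq2, and 5 had an unadjusted p under 0.05, which 21% of all genes had. The lowest p of that list was that of Cd40, at 0.76 (SE 0.23, edgeR adjusted p = 0.0702), a gene at only 1.73 ± 0.499 CPM in XXSry cells, 1.93 ± 0.381 CPM in XY-Sry, 1.04 ± 0.174 CPM in XX and 1.11 ± 0.535 CPM in XY-.

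In the SLAM family and its adaptors, 1 of 9 tested genes was lower with Sry and 0 higher. This was Fyn, the kinase that the adaptor SAP recruits to SLAM receptors, with 363 ± 19.5 CPM in XXSry cells and 352 ± 4.07 CPM in XY-Sry, against 407 ± 11.1 CPM in XX and 392 ± 28.8 CPM in XY- (log2 fold change -0.16, SE 0.042, edgeR adjusted p = 0.036). In the list for CD28 and ICOS signalling, 2 of 18 tested genes were lower and 0 higher. Here 16 were not called, and 9 of the 18 values were positive and 9 negative. The 2 called genes do not describe the pathway as a whole. Themis, an adaptor of T cell receptor signalling, averaged 216 ± 17.9 CPM in XXSry cells and 186 ± 11.3 CPM in XY-Sry, against 274 ± 16.8 CPM in XX and 258 ± 24.5 CPM in XY- (log2 fold change -0.41, SE 0.056, edgeR adjusted p = 0.00109). The other was Pdk1, at -0.47 (SE 0.084, edgeR adjusted p = 0.0053). In mouse nomenclature Pdk1 is a pyruvate dehydrogenase kinase of energy metabolism and not the kinase of CD28 signalling of that name, so it says nothing of the list's pathway.

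Of the inhibitory counterparts of costimulation, 2 of 8 tested were higher with Sry and 0 lower. Pdcd1, which encodes the inhibitory receptor PD-1, averaged 20.1 ± 2.00 CPM in XXSry cells and 22.0 ± 1.33 CPM in XY-Sry, against 10.8 ± 2.16 CPM in XX and 16.2 ± 2.82 CPM in XY- (log2 fold change 0.66, SE 0.099, edgeR adjusted p = 0.00218). It also passed in XXSry against XX alone (0.88, SE 0.14, edgeR adjusted p = 0.0181). Lag3, a further inhibitory receptor, was higher by 0.36 (SE 0.068, edgeR adjusted p = 0.00789). Ctla4, the inhibitory competitor of CD28 that lies between Cd28 and Icos, did not pass, at -0.10 (SE 0.048, edgeR adjusted p = 0.268).

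Of 16 other activation markers, 4 were higher with Sry and 2 lower. The 4 were immediate early transcription factors induced by T cell receptor signals. Nr4a1 averaged 121 ± 18.0 CPM in XXSry cells and 144 ± 11.2 CPM in XY-Sry, against 75.6 ± 8.36 CPM in XX and 80.4 ± 15.1 CPM in XY- (log2 fold change 0.76, SE 0.090, edgeR adjusted p = 0.000493). It passed in both pairs alone, with an edgeR adjusted p of 0.0324 in XXSry against XX and 0.011 in XY-Sry against XY-. The others were Egr2 (0.75, edgeR adjusted p = 0.0215), Egr3 (0.69, edgeR adjusted p = 0.0257) and Egr1 (0.56, edgeR adjusted p = 0.0316). The 2 that were lower were Tfrc, the transferrin receptor, at -0.29 (SE 0.050, edgeR adjusted p = 0.0051), and Il2ra, the high-affinity chain of the interleukin-2 receptor, at -0.18 (SE 0.042, edgeR adjusted p = 0.0202). Of 14 other costimulatory and adhesion receptors, 2 were higher, Cd5 at 0.20 (SE 0.038, edgeR adjusted p = 0.00789) and Cd6 at 0.17 (SE 0.036, edgeR adjusted p = 0.0147), which encode related modulators of T cell receptor signals, and 2 were lower, Dpp4 (CD26) at -0.39 (SE 0.075, edgeR adjusted p = 0.00849) and Cd2 at -0.22 (SE 0.059, edgeR adjusted p = 0.0433). For Cd69, 0 of 5 partner and neighbour genes passed with edgeR, DESeq2 or at an unadjusted p under 0.05, among them S1pr1 at -0.16 (SE 0.20, edgeR adjusted p = 0.719).

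**Figure D5:**
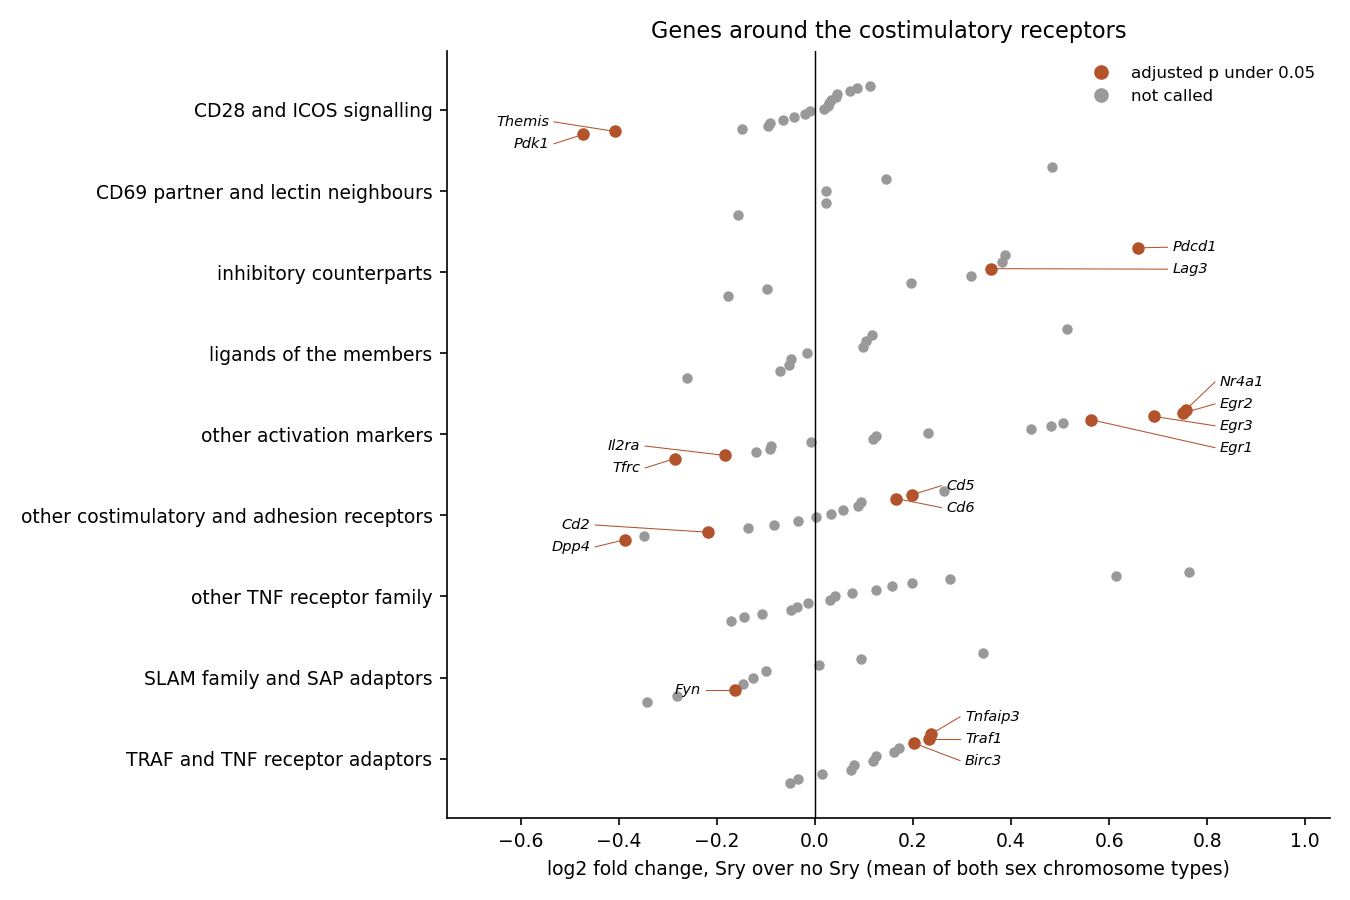
Log2 fold change for Sry over no Sry (x axis, mean of both sex chromosome types) of each tested gene in the 9 lists (rows), with filled orange points at an adjusted p under 0.05. The orange points lie to the right for the TRAF adaptors and inhibitory counterparts. They lie to the left for SLAM adaptors (Fyn) and for the CD28 and ICOS list (Themis and Pdk1). The remaining lists that have any show them on both sides. Pdk1 is a gene of energy metabolism and not of CD28 signalling.

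Some markers of T cell subsets and of other cells differed with Sry as well, and their part in the differences above was not tested. Over all tested genes, 5.44% were called in this comparison. Among tested markers of CD4 T cells (8), myeloid cells (3), gamma delta and NKT cells (5) and stroma and endothelium (4), 0 were called. The 10 regulatory T cell markers, mostly Il2ra, summed to 3106 to 3163 CPM in XXSry cells and 2755 to 2893 CPM in XY-Sry, against 3235 to 3514 CPM in XX and 2906 to 3463 CPM in XY-, with 1 higher (Ikzf2) and 2 lower (Gpr83 and Il2ra). With Sry these sums were lower without overlap, both in XXSry against XX and in XY-Sry against XY-. Il2ra is also listed above as an activation marker, so the sum does not measure regulatory T cells alone. Foxp3, the defining factor of these cells, did not pass (log2 fold change 0.21, edgeR adjusted p = 0.206). The 10 markers of CD8 T and NK cells summed to 46.8 to 53.0 CPM in XXSry cells and 48.6 to 60.8 CPM in XY-Sry, against 43.9 to 87.7 CPM in XX and 56.5 to 72.8 CPM in XY-. These sums overlapped in XXSry with XX and in XY-Sry with XY-. Of the 5 tested, Cd8a (-1.11, edgeR adjusted p = 0.00373) and Klrk1 (-1.34, edgeR adjusted p = 0.0172) were lower and 0 higher. Of the 5 values, 2 were positive and 3 negative. Cd8b1 of the same list averaged 12.8 CPM in XXSry cells, 11.4 CPM in XY-Sry, 10.5 CPM in XX and 11.3 CPM in XY-. Most of the sum was Eomes, with 31.9, 37.7, 47.4 and 43.4 CPM in the same order. Of 9 naive T cell markers, Tcf7 was higher (0.32, edgeR adjusted p = 0.00155) and Dapl1 lower (-1.60, edgeR adjusted p = 8.36e-05), while the sum of the list overlapped in XXSry with XX and in XY-Sry with XY- (3071 to 3971 CPM in XXSry cells, 2976 to 3122 CPM in XY-Sry, 3177 to 3528 CPM in XX and 2930 to 3358 CPM in XY-).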

How the data were processed

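RNA-seq libraries of stimulated CD4+ T cells were analysed from 1 table of raw read counts per Ensembl gene, which the authors deposited with 1 column per library. The submitters' processing notes name bcl2fastq 2.17 and build mm10. Aligner, counting tool, annotation and strand use are not given in the sources used here. Symbols, positions and exon lengths came from GENCODE M21. Levels are CPM with TMM factors, mean and SD over 3 libraries. Differences were tested with edgeR 4.0.16 (R 4.3.3) on the deposited counts: filterByExpr by group (minimum count 10, minimum total 15), 1 term per group over 12 libraries, quasi-likelihood F-test, Benjamini-Hochberg adjustment over 14585 genes in each of 7 comparisons, and a call at 0.05. Comparisons share libraries, so they are not independent. DESeq2 1.42.0 was an alternative, beside other size factors and filters, a block for the replicate number, fits to only the groups compared, and leaving out each library. Within groups, libraries varied beyond counting noise (chi-square per degree of freedom 2.47 to 18.0) and each was counted once. Correlations used 100000 permutations. The members, lists and alternatives were chosen with earlier results of these data known. The text names all members, up to 4 called genes per list with the largest change, up to 2 of lowest p in lists without calls, and the closest correlated genes; Ctla4, S1pr1, Tfrc, Il2ra and the marker genes named were picked after their values were seen. Precision is limited by read depth, which sets counting error only, and by 3 libraries per group.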

Additional observations from a re-analysis of the deposited data

How the results depend on the processing

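With Sry, Slamf1 stayed lower and Tnfrsf1b higher under all 5 other settings of normalization, filter, tool and block. Of 1300 refitted values of the 10 genes, 1200 kept direction and call, 86 uncalled ones changed sign, 12 became called and 2 lost their call. DESeq2 called 1 of the 10 genes for XX type against XY- type (Tnfrsf4) and 1 for XXSry against XX (Slamf1). Without the filter on low counts, the calls of the 10 genes were 2 in XXSry against XY-Sry (Cd27, Cd69), 3 in the mean of XX type against XY- type (Cd27, Cd69, Tnfrsf4) and 2 in XXSry against XX (Slamf1, Tnfrsf1b); the cause was not tested.

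Over all genes, dropping the filter gave 124 calls in XX against XY- (15 before), 368 in XXSry against XY-Sry (15), 652 in their mean (20), 638 in XXSry against XX (66), 703 in XY-Sry against XY- (99), 1494 in the Sry mean (793) and 32 for the interaction (0). DESeq2 gave 25 in XXSry against XY-Sry, 84 in XX type against XY- type, and 260 in each of XXSry against XX and XY-Sry against XY-. Fitting only the groups compared, with fewer libraries, gave 4 in XXSry against XX and 278 in XY-Sry against XY-. Leaving out 1 library gave 16 to 91 in the mean of XX type against XY- type, 2 to 146 in XXSry against XX, 8 to 182 in XY-Sry against XY- and 358 to 1282 in the Sry mean, with 0 to 1 of the 10 genes called in XXSry against XX and 1 to 3 in the Sry mean. Leaving out XX replicate 3 and XXSry replicate 3 together, chosen after seeing the data, gave 100 in XXSry against XX, 260 in XY-Sry against XY- and 1356 in the Sry mean.

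With the replicate number as a block, all genes called in XXSry against XX numbered 103, and no call of the 10 genes changed. The numbers were not shown to pair the libraries: 6 of 18 same-numbered pairs had a correlation of deviations above 0.1 (range -0.388 to 0.551), and 5 of 12 libraries were closest to a library of their own number.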

Other observations

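Markers of other cells not described above had the following levels. The 9 B cell markers summed to 373.8 to 401.6 CPM in XXSry cells and 359.6 to 373.6 CPM in XY-Sry, against 318.7 to 376.8 CPM in XX and 356.9 to 366.2 CPM in XY-. Most of this was Ighm, an immunoglobulin heavy chain gene, which averaged 349 CPM in XXSry cells, 327 CPM in XY-Sry, 324 CPM in XX and 327 CPM in XY- and did not pass for Sry (log2 fold change 0.05, edgeR adjusted p = 0.552). Of the 5 B cell markers tested, Cd74, the invariant chain of class II antigen presentation, was higher with Sry (0.34, SE 0.080, edgeR adjusted p = 0.0237). Markers of stroma and endothelium summed to 85.7 to 127.2 CPM in XXSry cells, 80.1 to 96.1 CPM in XY-Sry, 89.8 to 108.6 CPM in XX and 80.7 to 104.6 CPM in XY-. Most of that sum was Pecam1, an adhesion molecule of endothelium and of some leukocytes, which averaged 101 CPM in XXSry cells, 84 CPM in XY-Sry, 95.6 CPM in XX and 87.1 CPM in XY-. Markers of gamma delta and NKT cells summed to 5.69 to 7.93 CPM and those of erythrocytes and platelets to 0.445 to 0.721 CPM over the 12 libraries.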
